A study of Arabidopsis thaliana with 12 samples.

Results

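In *Arabidopsis*, most 24-nt small interfering RNAs (siRNAs) are made from transcripts of RNA polymerase IV (Pol IV), and the 1187 nuclear 100-bp bins described here are those where 24-nt reads were kept in a Pol IV mutant. The bins were selected from the deposited 24-nt table by their measured levels. A bin on chromosomes 1 to 5 was taken if its WT mean was at least 5 RPTM (24-nt reads scaled to 10000000 mapped reads of all lengths) and its *nrpd1* mean was at least 50% of that. The ribosomal DNA units on chromosomes 2 and 3 and the mitochondrial insertion on chromosome 2 were left out. The 1187 bins were 3.03% of the 39119 nuclear bins with a WT mean of at least 5 RPTM, and the whole table holds 57094 bins. Small RNA was sequenced from whole seedlings aged 2 weeks of the mutants *pkl-1*, *nrpd1-3*, and *nrpe1-11* and of WT, with 3 replicates of each of the 4 genotypes. The labels do not say whether replicates were grown apart, so p-values measure the spread between these libraries, which may be technical. *PKL* encodes PICKLE, a chromatin remodeler of the CHD3 type. The largest subunit of Pol IV is the product of *NRPD1*, and that of Pol V is the product of *NRPE1*. In whole seedlings, fewer cells of a type and less RNA per cell cannot be told apart.

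Pol IV transcripts are copied into double strands by RDR2 and cut by DCL3 into the 24-nt siRNAs that guide Pol V-dependent DNA methylation. Other double-stranded RNAs do not need Pol IV. Genes for microRNAs (miRNAs) and *TAS* genes, whose transcripts give trans-acting siRNAs after cleavage by a miRNA, are transcribed by Pol II, and transcripts of inverted repeats fold back into long hairpins that Dicer-like enzymes can cut. These products are mostly of 21 or 22 nt, and a smaller part is of 24 nt.

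The sequences below are examples and do not cover every kind of bin. The first is the highest bin of *TAS1C*, all of it exonic, on TAIR10 chr2:16537801-16537900, printed on the plus strand although the gene lies on the minus strand.
TAS1C: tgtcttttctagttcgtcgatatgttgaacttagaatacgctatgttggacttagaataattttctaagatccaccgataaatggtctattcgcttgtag
The next pair shows why the largest locus is called an inverted repeat. It is the highest bin of the left arm, chr3:1964801-1964900 on the plus strand, and its partner in the right arm, chr3:1969270-1969369 on the minus strand. The capitals mark the 1 mismatch in 100 bases.
left arm: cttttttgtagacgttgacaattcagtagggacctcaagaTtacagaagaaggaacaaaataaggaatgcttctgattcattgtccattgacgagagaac
right arm: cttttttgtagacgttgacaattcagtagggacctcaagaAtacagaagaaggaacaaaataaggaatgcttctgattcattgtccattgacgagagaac
The following bins stand for the repeated sequence of chromosomes 3, 4 and 5, at chr3:13794101-13794200 (minus strand), chr4:3055201-3055300 and chr5:11185801-11185900 (plus strands). The capitals mark the longest run of letters shared by all 3, of 35 bases, and the bins of chromosomes 4 and 5 share a run of 99 bases.
repeat of chromosome 3: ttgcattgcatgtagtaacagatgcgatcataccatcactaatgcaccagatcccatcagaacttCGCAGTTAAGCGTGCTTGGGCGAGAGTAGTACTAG
repeat of chromosome 4: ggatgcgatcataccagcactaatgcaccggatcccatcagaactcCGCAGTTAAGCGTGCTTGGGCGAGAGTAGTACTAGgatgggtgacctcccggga
repeat of chromosome 5: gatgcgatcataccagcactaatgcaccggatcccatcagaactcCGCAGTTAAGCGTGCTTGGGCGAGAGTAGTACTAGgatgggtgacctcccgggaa
The last are annotated mature miRNAs that touch the bins, with the seed (bases 2 to 8) in capitals. miR163 and miR829-3p.1 are the only 2 of 24 nt, and the 5p miRNAs of *MIR841a* and *MIR841b* share their seed. They lie at chr1:24884359-24884382 (plus), chr1:11834094-11834117 (minus), chr4:7885393-7885413 (minus), chr4:2184325-2184345 (plus) and chr4:6787108-6787128 (minus).
miR163: uUGAAGAGgacuuggaacuucgau
miR829-3p.1: aGCUCUGAuaccaaaugauggaau
miR841a-5p: uACGAGCCacuugaaacugaa
miR841b-5p: uACGAGCCacuggaaacugaa
miR5020b: aUGGCAUGaaagaaggugaga

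WT means of the 1187 bins ranged between 5.01 and 5624 RPTM with a median of 18.7, and 122 bins had at least 100 RPTM. Joined over gaps of up to 200 bp, the bins formed 736 loci, of which 545 were single bins. Chromosome 3 held 475 bins, and chromosomes 1, 2, 4 and 5 held 192, 138, 135 and 247. The 10 highest bins carried 28.0% of the summed WT level. Just inside the 50% limit lay chr1:30081201-30081300 with 50.1% of WT and chr2:4142301-4142400 with 50.2%. Just outside it lay chr2:5885601-5885700 and chr3:13789101-13789200, both with 49.7%. At the limit of 5 RPTM, chr1:10475501-10475600 (5.01 RPTM) and chr4:7883501-7883600 (5.02 RPTM) were inside, and chr3:5213001-5213100 (4.99 RPTM) and chr3:2841801-2841900 (4.98 RPTM) were outside.

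Libraries held between 5598380 and 12390784 mapped reads, so that 3 reads were worth 2.42 to 5.36 RPTM. Replicates differed by more than sampling noise in every genotype, as chi-square divided by its degrees of freedom lay between 1.56 and 12.0. The largest values were in *nrpd1*, whose mean entered the selection, with 10.3 and 12.0 for replicate 2 against replicates 1 and 3 and 6.61 between these. Such values rise with reads per bin, and the bins counted differed between genotypes, so they do not rank genotypes. *pkl* replicate 1 had 7.84 and 9.81 against *pkl* replicates 2 and 3, which differed from each other by 1.56. Of all nuclear bins with a WT mean of at least 5 RPTM, those on *TAS* genes were all among the 1187 (19 bins), as were 97.7% of those on tRNA genes, 95.4% of those on snoRNA or snRNA genes and 35.7% of those on miRNA genes.

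The bins were sorted into kinds by annotation and sequence, with categories chosen after values had been seen. There were 19 bins on *TAS* genes, 56 on miRNA genes, 126 on tRNA genes, 62 on snoRNA or snRNA genes, 259 on repeated sequence and 66 in the long inverted repeat of chromosome 3. A further 37 lay in other inverted repeats, 364 on protein-coding genes, 23 on other non-coding RNA genes, 7 on pseudogenes or transposon genes and 168 between genes. Pseudogenes and transposon genes were rare here, and made up 6607 of the 37932 other nuclear bins. Median GC content was 44% in the 1187 bins and 35% in the others. None of the 24-mers was unique in the reference in 352 bins (29.7%), against 11.8% of the other nuclear bins, so their levels cannot be assigned to 1 copy. Such bins, and those on tRNA, snoRNA and snRNA genes, hold reads although the stated processing removed structural RNA and kept uniquely mapped reads, and how they came to be counted was not tested.

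**Figure D1:**
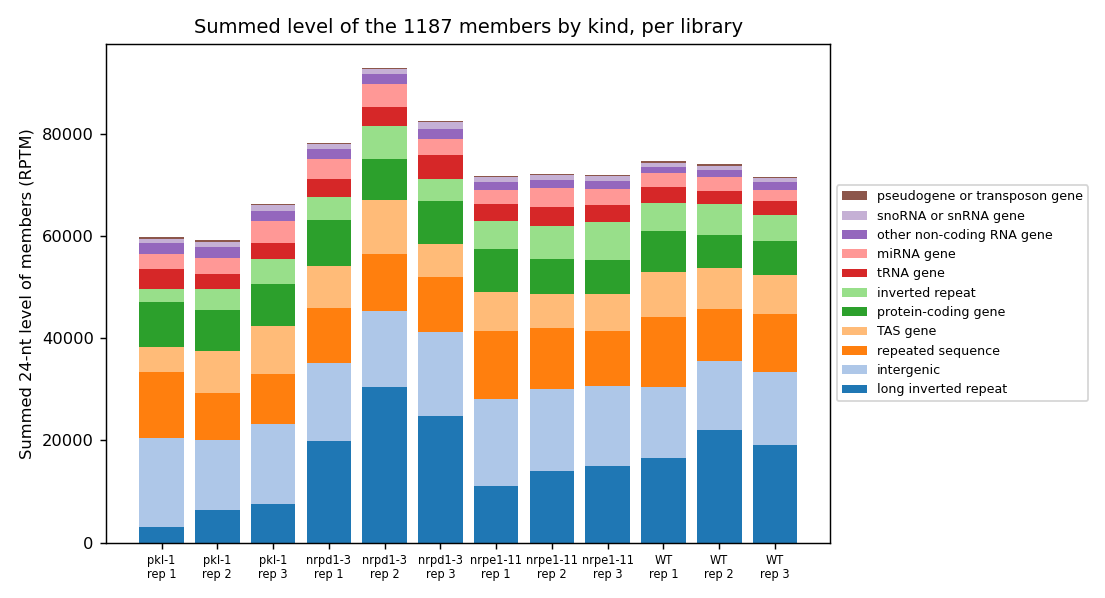
Summed 24-nt level of the 1187 bins in each library (bars, RPTM), divided by kind of bin (colours), for pkl-1, nrpd1-3, nrpe1-11 and WT with 3 replicates each. The long inverted repeat made up 26.2% of the WT sum and shrank most in the pkl-1 bars.

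The summed level was 61766 ± 3953 RPTM in *pkl*, 84592 ± 7574 RPTM in *nrpd1*, 72016 ± 184 RPTM in *nrpe1* and 73439.7 ± 1613 RPTM in WT (SD, n = 3 each). As a share of WT, *pkl* had 84.1%, *nrpd1* 115% and *nrpe1* 98.1%. All *pkl* libraries and no *nrpd1* library lay below WT. Without the long inverted repeat of chromosome 3, *pkl* had 103.6% and *nrpe1* 108% of WT. The *pkl* libraries then overlapped WT, with 56766, 52861 and 58803 RPTM against 58075, 51965 and 52473. The *nrpd1* value was fixed in part by the selection and is a description. The bins held 7.71 ± 2.57% of nuclear 24-nt reads in *pkl*, 87.5 ± 6.28% in *nrpd1* and 15.8 ± 2.01% in *nrpe1*, against 6.32 ± 0.223% in WT (SD, n = 3 each). The *pkl* libraries held 10.7, 6.43 and 6.03% and the WT libraries 6.55, 6.31 and 6.11%, so only *pkl* replicate 1 lay above every WT library. Relative to WT, the median bin stood at 96.4% for *pkl*, 107% for *nrpd1* and 103% for *nrpe1*. Over all nuclear bins with a WT mean of at least 5 RPTM, *pkl* had a median of 66.4%, *nrpd1* of 0% and *nrpe1* of 30.6%.

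Single bins moved in *nrpd1* as follows, as a description. In 691 bins the *nrpd1* mean was at least the WT mean, and in 61 it was more than 2-fold above it. By limma with Benjamini-Hochberg adjustment over 56658 bins, adjusted p was under 0.01 in 20 of the 1187 bins with a higher level, against 0.141% of all bins, and in 3 with a lower level, against 84.6% of all bins (84.7% in either direction). These shares follow from the rule, and nothing is read from them.

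In *pkl* against WT, where WT levels had also entered the selection, 10 of the 1187 bins were higher and 59 were lower by limma (adjusted p under 0.01). Of all bins, 1.98% were higher and 8.2% lower, or 10.2% in either direction. The median log2 fold change was -0.07 over the 1187 bins and -0.31 over all bins. The count fell without a WT library, to 35, 20 and 23 without WT replicates 1, 2 and 3, and was 86 without *pkl* replicate 1. Other scalings moved the split between directions. It was 44 higher and 57 lower at equal nuclear 24-nt totals, 57 and 65 by edgeR with TMM, and 29 and 58 by DESeq2.

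**Figure D2:**
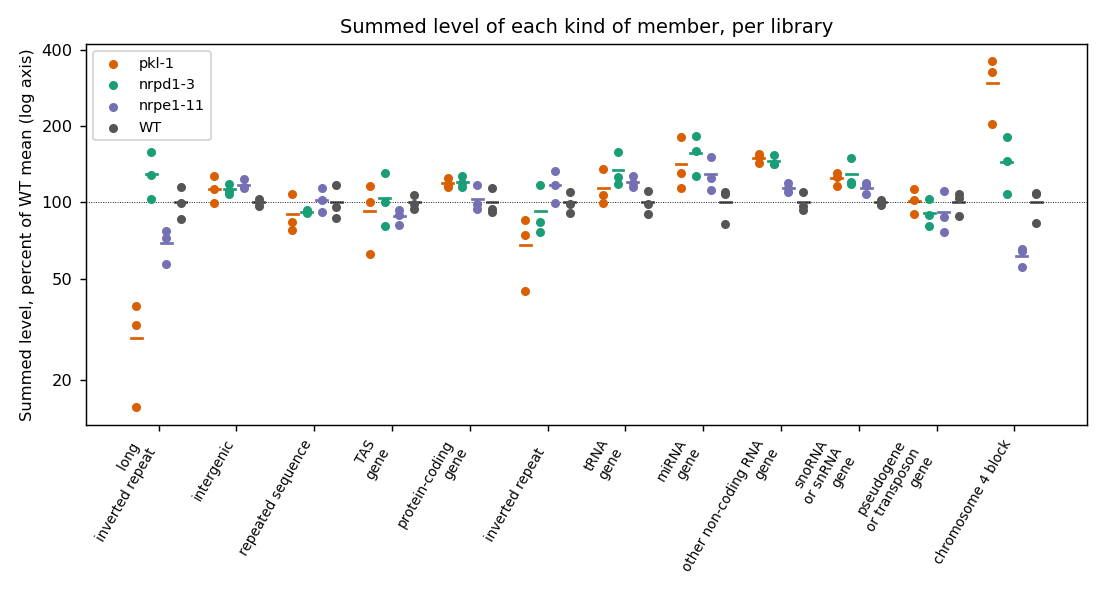
Summed level of each kind of bin in each library as percent of the WT mean (log axis), with points for the libraries of pkl-1, nrpd1-3, nrpe1-11 and WT and short lines for their means. The long inverted repeat in pkl-1 (mean 29.2% of WT) and the chromosome 4 block in pkl-1 (mean 296% of WT) lie farthest from 100%.

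Of the 59 lower bins, 54 lay in 1 locus, the long inverted repeat chr3:1963701-1970500. Its 66 bins overlapped *AT3G06435*, *AT3G06436* and the non-coding RNA genes *AT3G01835*, *AT3G00220* and *AT3G01845*, and in part no annotated gene. An alignment of the locus with its other strand gave arms of 3249 aligned bases with 98.9% identity, separated by 237 bp, and 33 bins touched each arm. The summed level was 3009, 6344 and 7515 RPTM in *pkl*, 19827, 30449 and 24773 in *nrpd1*, and 11021, 14010.5 and 14913 in *nrpe1*, against 16584, 22085 and 19137 in WT. All *pkl* and *nrpe1* libraries lay below all WT libraries, and the *nrpd1* libraries overlapped WT. The sum was 29.2% of WT in *pkl*, or 36.0% without *pkl* replicate 1, and 69.1% in *nrpe1*. In 63 of the 66 bins every *pkl* library was below every WT library. These bins are not separate observations, since the arms have 98.9% identity and can share reads. The same held for 130 of the 1121 other bins described here. It was not counted over all bins, so it does not show that the repeat differs from the rest of the genome.

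The highest bin of this repeat, printed above as the left arm, had 276, 482 and 591 RPTM in *pkl*, against 1866, 1908 and 1755 in WT. Its log2 fold change was -2.10 ± 0.34 (SE, adjusted p = 3.41e-05 by limma). In the same bin *nrpe1* had 1244, 1076 and 1262 RPTM, lower than WT by limma (log2 fold change -0.63, adjusted p = 0.00452). The bin across from it, chr3:1969201-1969300, had 266, 360.3 and 477 RPTM in *pkl*, against 1568, 1661 and 1424 in WT. Of the 24-mers in these bins, 31.2% of the left arm's and 18.2% of the right arm's were unique in the reference, so most reads cannot be assigned to 1 arm. In chr3:1965801-1965900 the level was 2.97, 21.5 and 18.1 RPTM in *pkl*, against 44.4, 68.7 and 54.4 in WT. Its log2 fold change was -2.23, or -1.43 without *pkl* replicate 1, whose value here equals 3 reads. The call was lost with a pseudocount of 0.1 and without any 1 of the WT libraries. In all, 4 bins of the repeat were lower in *nrpe1*, and at equal nuclear 24-nt totals no bin of the 1187 was.

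**Figure D3:**
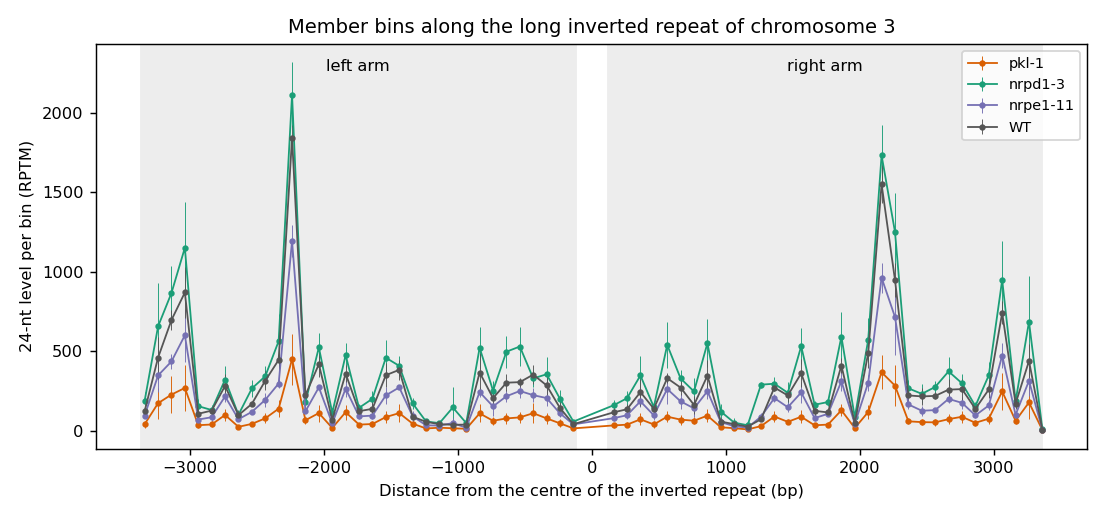
Mean 24-nt level (RPTM, error bars SD, n = 3 libraries) of the 66 bins of the long inverted repeat by distance from its centre (bp), for pkl-1, nrpd1-3, nrpe1-11 and WT, with the aligned arms shaded. The peaks mirror each other about the centre, and the pkl-1 mean is below the WT mean in all 66 bins, with WT at 1843 RPTM in its highest bin.

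Outside the long inverted repeat, 5 bins were lower in *pkl*. One lay in *PYK10*, a beta-glucosidase of ER bodies, where chr3:2841401-2841500 had 3.97, 11.5 and 5.58 RPTM in *pkl*, against 25.02, 26.7 and 41.9 in WT (log2 fold change -2.08 ± 0.47, SE, adjusted p = 0.00211). Another lay in the non-coding RNA gene *AT5G06195*, at chr5:16716201-16716300, with 3.97, 7.18 and 12.5 RPTM in *pkl*, against 30.7, 28.0 and 37.7 in WT (log2 fold change -2.00, adjusted p = 0.00258). Both calls were lost with a pseudocount of 0.1 and without any 1 of the WT libraries, that of *PYK10* also in the joint fit of 4 genotypes, and that of *AT5G06195* also without *pkl* replicate 2. The other inverted repeats summed to 2499, 4125 and 4755 RPTM in *pkl*, against 5498, 6107 and 5063 in WT. All *pkl* libraries were below WT there (68.3% of WT, or 79.9% without *pkl* replicate 1), and 1 of the 37 bins passed the test. The median bin stood at 84.5% of WT in *pkl*, and the *pkl* mean was below the WT mean in 24 of the 37 bins. One of these repeats, chr1:24721101-24721500 on *AT1G08833* and *AT1G09805*, had 995, 1962 and 2195 RPTM in *pkl*, 1999.8, 3049 and 1988 in *nrpd1*, and 3009, 3538 and 4282 in *nrpe1*, against 2505, 3561 and 2697 in WT. The alignment kept for this repeat had 35 aligned bases and 97.1% identity. Another, chr5:22322701-22322900 between genes, had 585, 878 and 924 RPTM in *pkl*, against 1244, 1104 and 1057 in WT. The alignment kept for this locus had 59 aligned bases and 83.1% identity, with 1173 bp between the arms. Alignments whose arms overlapped were not kept, so the arm length of both loci was not settled. In both loci each *pkl* library was below each WT library, while *nrpd1* and *nrpe1* overlapped WT. The locus chr3:16158401-16161500 on *AT3G44570* and *AT3G44580*, of 27 bins, had 1209, 1758 and 2130.5 RPTM in *pkl*, against 2474, 2073 and 1891 in WT, and these overlap. Its bin chr3:16158701-16158800 had 11.3, 9.81 and 12.0 RPTM in *nrpe1*, against 23.4, 30.5 and 26.5 in WT (log2 fold change -1.20, adjusted p = 0.00773 by limma). This call was lost without any 1 of the *nrpe1* or WT libraries, in the joint fit, with the replicate block, by edgeR and by DESeq2, and the value was 0.0639 at equal nuclear 24-nt totals.

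All 10 bins that were higher in *pkl* lay on chromosome 4, and 8 of them lay in a block of 21 bins in 6 loci at chr4:7844501-7890800. The block, picked after its values had been seen, holds *MIR5026*, *MIR863*, *MIR5996*, *MIR841a* and *MIR3932b* and the protein-coding genes *UNE15* and *HTA4*, of which *HTA4* encodes a histone H2A. Its summed level was 1967, 3165 and 3486 RPTM in *pkl*, 1409, 1760.3 and 1043 in *nrpd1*, and 539.6, 633 and 624 in *nrpe1*, against 1048, 1058 and 801 in WT. Every *pkl* library was above, and every *nrpe1* library below, every WT library. Relative to WT the sum was 296% for *pkl*, or 343% without *pkl* replicate 1, 145% in *nrpd1* and 61.8% in *nrpe1*. All 21 bins had a *pkl* mean above the WT mean.

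In *UNE15*, the bin chr4:7882901-7883000, all of it exonic, had 871, 1322 and 1493 RPTM in *pkl*, 441, 464 and 261 in *nrpd1*, and 151, 147 and 132 in *nrpe1*, against 517, 416 and 339 in WT. It rose in *pkl* (log2 fold change 1.52 ± 0.33, SE, adjusted p = 0.00148) and fell in *nrpe1* (log2 fold change -1.54 ± 0.20, SE, adjusted p = 0.000405). The call in *nrpe1* was lost at equal nuclear 24-nt totals, with a log2 fold change of -0.20. In *HTA4*, chr4:7885601-7885700 had 57.5, 45.9 and 46.0 RPTM in *pkl*, against 8.07, 7.63 and 1.40 in WT, the last of these being 1 read. The log2 fold change was 3.14, or 2.51 without WT replicate 3. In the non-coding RNA gene *AT4G13495*, chr4:7845601-7845700 had 286, 601 and 632 RPTM in *pkl*, against 61.3, 109 and 90.7 in WT (log2 fold change 2.48, adjusted p = 1.08e-05).

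**Figure D4:**
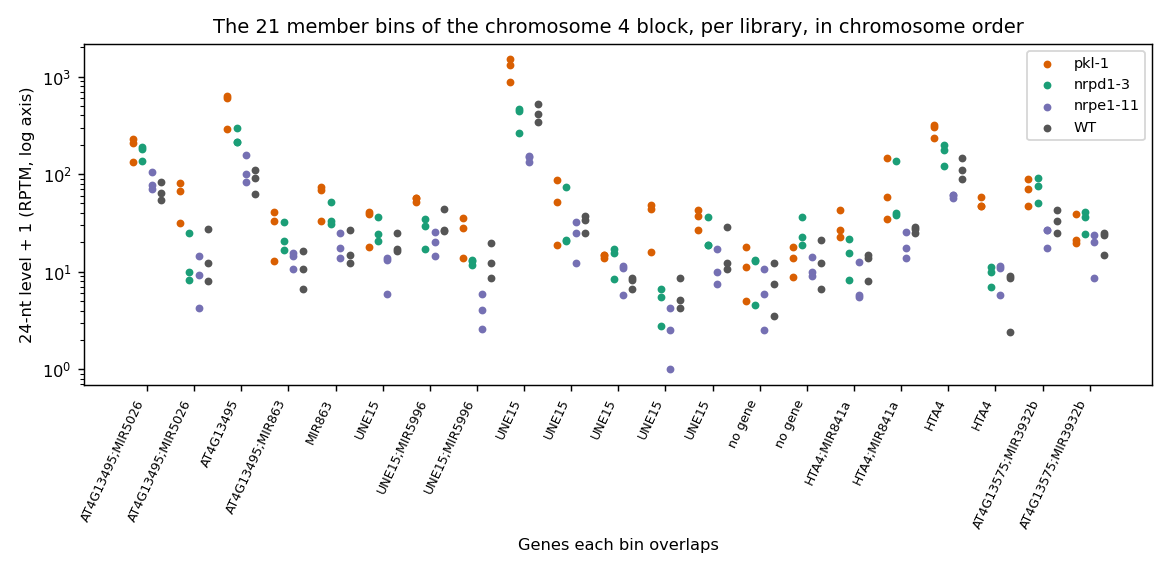
24-nt level plus 1 (RPTM, log axis) of the 21 bins of the chromosome 4 block in each library (points), in chromosome order and labelled by the genes they overlap, for pkl-1, nrpd1-3, nrpe1-11 and WT. All 21 pkl-1 means are above the WT means, and the highest pkl-1 library reaches 1493 RPTM in UNE15.

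The other 2 bins that were higher in *pkl* lay at *MIR841b* and the overlapping *AT4G04408*. The bin chr4:2184301-2184400, which holds the mature miR841b-5p, had 188, 332 and 1147.5 RPTM in *pkl*, 6.70, 66.9 and 19.6 in *nrpd1*, and 1.61, 8.18 and 10.5 in *nrpe1*, against 3.23, 3.82 and 8.37 in WT. Its log2 fold change in *pkl* was 6.18 ± 0.49 (SE, adjusted p = 2.25e-10), the largest of the 1187 bins, and the *pkl* libraries spread widely. Without *pkl* replicate 3 it was 5.45. The *MIR841a* and *HTA4* bins of the block shared between 11.7% and 42.9% of their 24-mers with this locus in 3 of 4 bins, so reads of these copies are partly not distinguishable.

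In *nrpe1* against WT, where WT again entered the selection, 4 of the 1187 bins were higher and 7 were lower by limma, beside 1.02% and 29.4% of all bins (30.4% in either direction). The median log2 fold change was 0.03 over the 1187 bins and -0.68 over all bins. The count was 6 without any 1 of the *nrpe1* libraries, and 5, 4 and 5 without WT replicates 1, 2 and 3. The direction depended on the scaling, with 426 higher and 0 lower at equal nuclear 24-nt totals, where the median over the 1187 bins moved to 1.27. These bins held 15.8% of nuclear 24-nt reads in *nrpe1* and 6.32% in WT, so this scaling raises their *nrpe1* level relative to WT. The share of all bins called under this scaling is not given here. By DESeq2 there were 12 higher and 2 lower, and by edgeR with TMM 37 and 3.

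The largest increase in *nrpe1* was at *MIR5020b*, chr4:6787101-6787200, with 158, 482 and 256 RPTM in *nrpe1*, against 17.8, 12.7 and 20.9 in WT (log2 fold change 3.92 ± 0.40, SE, adjusted p = 0.00015). *nrpd1* was also above WT here, at 172, 412 and 134 RPTM, and *pkl* had 19.8, 18.7 and 50.2 RPTM. The bin chr1:23140501-23140600, between genes, had 227, 355 and 385 RPTM in *nrpe1*, against 54.1, 31.8 and 27.9 in WT, while *nrpd1* had 23.4, 31.2 and 23.2 RPTM. The bin chr3:11482001-11482100, also between genes, had 27.4, 39.2 and 45.1 RPTM in *nrpe1*, against 8.88, 7.63 and 12.6 in WT, a call that was lost without WT replicate 1 or 2. *MIR4245*, chr5:21161501-21161600, had 282, 224 and 256 RPTM in *nrpe1*, against 111, 120 and 79.6 in WT. The loci with the highest *nrpd1* level relative to WT were *MIR5020b* (1396%), the non-coding RNA gene *AT4G26255* (880%) and chr3:11482001-11482100 (389%), which the selection favoured.

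Neither genotype of the comparison of *pkl* with *nrpe1* had entered the rule. In it, 12 of the 1187 bins were higher and 18 were lower in *pkl* by limma, beside 18% and 0.973% of all bins (18.9% in either direction). The median log2 fold change was -0.10 over the 1187 bins and 0.53 over all bins. Of the higher bins, 10 lay in the chromosome 4 block, and of the lower bins, 12 lay in the long inverted repeat. The *UNE15* bin named above gave a log2 fold change of 3.05 ± 0.26 (SE, adjusted p = 0.000111), and *MIR5020b* one of -3.29 ± 0.48 (SE, adjusted p = 0.000953), which was not called without *pkl* replicate 1 or 2. The count was 22, 7 and 11 without *pkl* replicates 1, 2 and 3, and 10, 13 and 10 without *nrpe1* replicates 1, 2 and 3. It was 8 higher and 151 lower at equal nuclear 24-nt totals, 14 and 59 by DESeq2, and 20 and 110 by edgeR with TMM.

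*TAS* genes, of which 6 of the 8 listed were touched, gave 11.0% of the summed WT level in 19 bins. Their sum was 5052, 8118 and 9357 RPTM in *pkl*, 8097, 10572 and 6518 in *nrpd1*, and 7587, 6591 and 7229 in *nrpe1*, against 8672, 7964 and 7635 in WT. The *pkl* and *nrpd1* libraries overlapped WT, and each *nrpe1* library was below each WT library. The *pkl* sum was 92.8% of WT, or 108% without *pkl* replicate 1. The printed *TAS1C* bin had 3231, 4889 and 5478 RPTM in *pkl*, 5030.15, 6279 and 3806 in *nrpd1*, and 5172, 3815 and 4384 in *nrpe1*, against 5711, 4625 and 4461 in WT. These ranges overlap, and none of the *TAS* bins passed limma's test in *pkl*, where 1 had an unadjusted p under 0.05 and edgeR and DESeq2 called none. The locus sums of *TAS2* were 538, 1276 and 1535 RPTM in *pkl*, against 847, 1040.5 and 1090.1 in WT, and those of *TAS1A* were 469.9, 687 and 853 RPTM in *pkl*, against 727, 756 and 569 in WT. *TAS1B* and *TAS4* were less abundant than these loci in WT, with means of 153 and 9.33 RPTM. In *nrpe1*, 1 *TAS* bin passed the test. This was chr3:5862101-5862200 in *TAS3*, with 25.8, 32.7 and 54.1 RPTM in *nrpe1*, against 89.6, 123 and 117 in WT (log2 fold change -1.58 ± 0.31, SE, adjusted p = 0.00341). This call was lost without *nrpe1* replicate 2, without any 1 of the WT libraries, with a pseudocount of 0.1 and at equal nuclear 24-nt totals (-0.26).

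miRNA genes gave 56 bins on 45 genes, of 326 annotated. Mature miRNAs that touch the 1187 bins numbered 54, of which 40 were of 21 nt. *MIR163*, whose mature miRNA is of 24 nt, was the highest miRNA bin, with 695, 712 and 866 RPTM in *pkl*, 1227, 1045 and 820 in *nrpd1*, and 912, 1460.1 and 967 in *nrpe1*, against 982, 982 and 743 in WT. None of the comparisons passed limma's threshold here. *MIR829* at chr1:11834101-11834200 had 42.6, 151 and 236 RPTM in *pkl*, 73.7, 192 and 129 in *nrpd1*, and 41.9, 85.0 and 99.3 in *nrpe1*, against 46.0, 149 and 74.0 in WT. Replicate 1 was lowest in each genotype. Summed over the 56 bins, miRNA genes reached 142 ± 34.5% (*pkl*), 156 ± 27.8% (*nrpd1*) and 129 ± 20.4% (*nrpe1*) of WT (SD of the mutant libraries, n = 3), and *pkl* had 156% without replicate 1. The median bin stood at 114% for *pkl*, 163% for *nrpd1* and 111% for *nrpe1*, so few bins carried much of the *pkl* and *nrpe1* sums. In *pkl* these included *MIR841b* and *MIR8175*, which at chr2:3740901-3741000 had 616, 148 and 128 RPTM in *pkl*, against 179.97, 61.1 and 85.1 in WT.

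**Figure D5:**
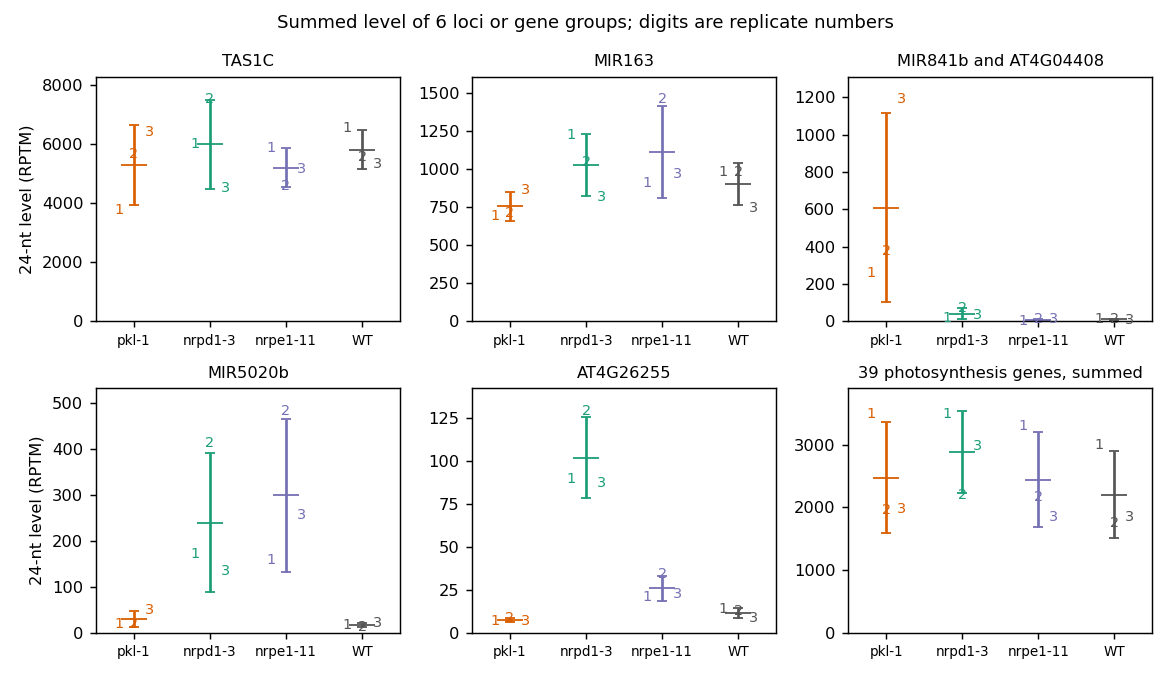
Summed 24-nt level (RPTM) of 5 loci and of 39 photosynthesis genes in pkl-1, nrpd1-3, nrpe1-11 and WT, with digits for the replicates, long ticks for means and bars for the SD (n = 3). TAS1C overlaps between genotypes. MIR163 overlaps WT in each mutant, and its pkl-1 libraries lie below its nrpe1-11 libraries. MIR841b is high in pkl-1, MIR5020b in nrpd1-3 and nrpe1-11, and AT4G26255 in nrpd1-3. For the photosynthesis genes, replicate 1 is highest in each genotype.

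Repeated sequence, with at least 50% of the 24-mers in 10 or more copies, gave 259 bins, of which 177 lay on chromosome 3, 21 on chromosome 4 and 61 on chromosome 5. Distances of 500 bp joined 68 pairs of these bins on chromosome 3, 18 on chromosome 4 and 16 on chromosome 5. On chromosome 5, 700 bp joined 15 pairs and 1000 bp joined 12, so 500 bp did not stand out there. The reference used here annotates no gene on the printed bins, which carry the letters of the 5S ribosomal RNA gene by general knowledge. This identity was not tested. Summed levels were 12771, 9217 and 9856 RPTM in *pkl*, 10758, 10987 and 10799.6 in *nrpd1*, and 13450, 12019 and 10811 in *nrpe1*, against 13788, 10230.3 and 11342.5 in WT. The loci with the largest share of inverted 16-mers were also repeated sequence, at chr3:14172701-14172800, chr3:14173201-14173300 and chr3:14174001-14174100, with WT means of 54.0, 18.2 and 55.5 RPTM. The sums over all repeated bins overlapped between all genotypes (*pkl* 90.1% of WT, or 80.9% without *pkl* replicate 1), and replicate 1 was highest in *pkl*, *nrpe1* and WT.

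The single highest bin, chr3:14192901-14193000, had 7997, 5199.98 and 5894 RPTM in *pkl*, 7158, 6371 and 6984 in *nrpd1*, and 7461, 6038 and 6496 in *nrpe1*, against 5504, 5466 and 5903 in WT. All 24-mers of this bin also occur in structural RNA genes or the left-out ribosomal DNA units, and none was unique in the reference. It was counted among the bins between genes. Its locus of 3 bins lies near the unit left out on chromosome 3 and gave 10.4% of the summed WT level. Of the 24-mers of that locus, 70.6% also occur in those genes or units. tRNA gene bins summed to 114 ± 18.9% (*pkl*), 134 ± 21.3% (*nrpd1*) and 120 ± 6.07% (*nrpe1*) of WT, and *pkl* had 103% without replicate 1. snoRNA and snRNA gene bins summed to 125 ± 7.54% (*pkl*), 129 ± 17.4% (*nrpd1*) and 114 ± 6.13% (*nrpe1*) of WT (SD of the mutant libraries, n = 3). On tRNA genes limma called none of the 126 bins in *pkl*, where 19 had an unadjusted p under 0.05, edgeR called none and DESeq2 called 8. Over all 1187 bins, limma gave an unadjusted p under 0.05 in 175, edgeR called 75 and DESeq2 called 87. Among the 1121 bins outside the long inverted repeat these counts were 110, 18 and 32. For an unadjusted p, for edgeR and for DESeq2, the share of all bins is not given here. Such counts are therefore descriptions, and do not set the bins described here apart from the rest.

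Protein-coding genes gave 364 bins with a median WT level of 9.27 RPTM, and 77.7% of these bins were exonic over their whole length. In all, 190 bins lay on 39 genes of the light-harvesting complexes, the photosystems and Rubisco with its activase, a group named after the bins had been seen. *CAB1*, a chlorophyll a/b-binding protein of the antenna, had 441, 222 and 205 RPTM in *pkl*, 399.7, 239 and 316 in *nrpd1*, and 361, 255 and 182 in *nrpe1*, against 317, 189.5 and 201 in WT. Replicate 1 was the highest in each genotype. The sum over the 39 genes was 3492, 1953 and 1980 RPTM in *pkl*, 3489, 2190.02 and 2979 in *nrpd1*, and 3291, 2173 and 1847 in *nrpe1*, against 2997, 1754 and 1842 in WT. Replicate 1 was highest in all 4 genotypes for 18 of the 39 genes, while the genotypes overlapped. The *pkl* sum was 113% of WT, or 89.5% without *pkl* replicate 1. Near-identical paralogs such as *CAB1*, *CAB2* and *CAB3* can share reads, so single members are uncertain.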

How the data were processed

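According to the methods, the authors trimmed adapters and low-quality bases, removed structural RNA, kept uniquely mapped reads on TAIR10 and counted 24-nt reads per 100-bp bin with bedtools. The submitters' notes name CASAVA 1.8, Trim Galore 0.4.0, BWA 0.7.15, bedtools and edgeR. The deposited table does not bear this out throughout, since 352 members hold no unique 24-mer and others lie on structural RNA genes. Values were deposited as a normalized signal (RPTM), scaled to mapped reads of all lengths, with a column for each library. Each value was a whole multiple of 1 read (tolerance 0.02) in 100% of values. Floors of 3 reads cover counting error only.

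Groups came from the sample labels. A bin was tested if any of 12 libraries exceeded 5 RPTM, and all 1187 members passed. These bins were compared between pairs of genotypes by limma 3.58.1 (R 4.3.3) on log2(RPTM + 1), two-sided, with Benjamini-Hochberg adjustment over 56658 bins and a threshold of 0.01. Fold changes on this scale understate changes of low bins. edgeR 4.0.16 and DESeq2 1.42.0 were run on the recovered reads. The analysis was tested on simulated data.

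The reference, TAIR10.1 from RefSeq, has the TAIR10 nuclear sequence, and no bin ended beyond its chromosome. Kinds came from its annotation, from 24-mer copies (at least 50% of 24-mers in at least 10 copies), and from 16-mers whose reverse complement lay within 2000 bp (at least 10). Arms were aligned with blastn 2.17.0, and only alignments whose left arm ended before the right arm began were kept. Strand is not in the table. The members, lists and loci were chosen with earlier results of these data known. Loci were named by rank of WT level, of fold change in non-overlapping called bins, of the *nrpd1* ratio and of inverted 16-mers, the last of which fell on repeated sequence of chromosome 3. The chromosome 4 block and the photosynthesis group were picked afterwards. Alternatives were other pseudocounts, filters, scalings, tools, member limits and left-out libraries.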

Additional observations from a re-analysis of the deposited data

How the results depend on the processing

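Calls were few and moved with the settings. For *pkl* against WT (69 bins), a pseudocount of 0.1 gave 27, edgeR with TMM 122, members with at least 90% unique 24-mers 6, and members without the long inverted repeat, an alternative added after seeing the data, 15. Leaving out 1 library gave 20 to 86. For *nrpe1* against WT (11 bins), an adjusted p of 0.05 gave 45, equal nuclear 24-nt totals 426, edgeR with TMM 40, an *nrpd1* level of at least 100% of WT 6, unique members 6, no long inverted repeat 7, and leaving out 1 library 4 to 6. For *pkl* against *nrpe1* (30 bins), the adjusted p of 0.05 gave 110, the pseudocount of 0.1 gave 13, equal totals 159, the joint fit of 4 genotypes 77, edgeR with the authors' library sizes 50, edgeR with TMM 130, DESeq2 73, unique members 9, no long inverted repeat 18, and leaving out 1 library 7 to 22.

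The replicate numbers were not taken as pairs, since correlations of deviations between samples of the same number lay between -0.01 and 0.17, not all above 0.1. A shared replicate effect is not thereby absent. Replicate 1 was highest in 602 members in *pkl*, 351 in *nrpd1*, 515 in *nrpe1* and 606 in WT. With the replicate number as a block, 88 bins were called in *pkl* against WT, 11 in *nrpe1* against WT and 81 in *pkl* against *nrpe1*.

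The median log2 fold change for *pkl* against WT (-0.07) was 0.38 at equal totals, 0.30 by edgeR with TMM, 0.35 by DESeq2, 0.12 for members with *nrpd1* of at least 100% of WT and -0.29 for a WT mean of at least 20 RPTM. For *nrpe1* against WT (0.03) it was 1.27, 0.35 and 0.27 at equal totals, by TMM and by DESeq2. For *pkl* against *nrpe1* (-0.10) it was -0.89 at equal totals and -0.29 for a WT mean of at least 20 RPTM. The 1187 members became 691 at an *nrpd1* level of at least 100% of WT, 579 at a WT mean of at least 20 RPTM and 1955 at equal totals. Summed levels as percent of WT were 102, 298 and 162 in *pkl*, *nrpd1* and *nrpe1* at equal 24-nt totals over all analysed bins, organelles and left-out regions included, 104 in both *pkl* and *nrpe1* for unique members, and 103.6 and 108 in *pkl* and *nrpe1* without the long inverted repeat. The bin chr3:16158701-16158800, lower in *nrpe1*, had a log2 fold change of 0.0639 at equal totals. Of the alternatives run for single named bins, 256 kept the call, 49 lost it and 1 reversed. The cause was not tested. Low bins rest on few reads, since 3 reads were worth up to 5.36 RPTM.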
